A study of Equus caballus with 32 samples.

Results

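The genes described here are 35 markers of the cell division cycle, measured in the blood of mares after their foals had been weaned. They were taken by name: 12 act in S phase, when the genome is copied, and 23 act in G2 and mitosis, when it is divided. A probe counted as one of theirs where the array's own gene name matched, and the brightest probe by mean signal stood for a gene with several. By this rule 32 of the 35 had a probe, and 29 were measurable in blood, of 14512 gene names with a measurable probe. No probe carried the names TOP2A, PLK1 and CDC20, so these genes were not analysed here.

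The samples were whole venous blood from 32 Welsh Pony mares, drawn 30 days after weaning into tubes that preserve RNA. Per the labels 16 mares had been through a brutal weaning and 16 through a progressive weaning, and how either was carried out was not described. All 32 were adult females of 1 breed, with no other treatment named, and each gave 1 single-colour array. The comparison asks whether blood transcripts differed between mares by how weaning had been done.

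A dividing cell first makes nucleotides and copies its DNA, then condenses its chromosomes, attaches them to a spindle and separates them. Many of the transcripts needed for each stage are made only as that stage approaches, so their presence in RNA marks cells in cycle. Most white cells that circulate in healthy blood are not dividing, and the few that are include activated lymphocytes and antibody-producing plasmablasts. In RNA of whole blood, fewer cells of a type and less RNA per cell cannot be told apart.

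A level is the log2 of a probe's signal over the 75th percentile of its own array, so 0 is a signal at that percentile and 1 unit is a doubling. Levels of different probes are not compared, because probes bind with different strength. Of the 29 measurable genes, 22 stood well above background on every array. The other 3 with a probe were too dim: CCNE2, a cyclin that drives entry into S phase, stood above background on 1 brutal and 4 progressive arrays, KIF20A, a motor of late mitosis, on 7 and 7, and CENPF, a protein of the kinetochore (the chromosome's attachment point for the spindle), on 1 and 0. The members were read by 57 probes in all, each of 60 bases.

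The probes of 3 mitotic genes are shown to make plain how far several probes of a gene are separate readings. UBE2C, the ubiquitin-conjugating enzyme of the complex that ends mitosis, has 5 probes that step along the transcript 1 base at a time. The first and the last lie at chr22:34838647-34839188 and chr22:34838651-34839192 on the plus strand, on the build EquCab1 that the file headers name, and each span of 542 bases exceeds the probe, so the sequence is split between exons. Capitals mark the 56 bases that all 5 share.
UBE2C first probe: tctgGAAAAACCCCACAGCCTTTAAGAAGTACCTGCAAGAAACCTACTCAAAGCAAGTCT
UBE2C last probe: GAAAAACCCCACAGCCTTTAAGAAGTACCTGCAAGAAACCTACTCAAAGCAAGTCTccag
These 5 probes correlated at r = 0.974 to 0.995 over the arrays, as readings of 1 stretch of RNA. CCNB1, the cyclin that switches on mitosis, has 2 probes that adjoin without overlap on the minus strand, at chr21:761282-761512 and chr21:761222-761281.
CCNB1 upstream probe: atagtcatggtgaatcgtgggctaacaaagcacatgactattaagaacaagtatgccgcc
CCNB1 downstream probe: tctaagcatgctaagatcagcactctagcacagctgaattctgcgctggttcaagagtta
They gave r = 0.984 over the 32 arrays and differences between groups of 0.14 and 0.14. MKI67, the Ki-67 protein that coats mitotic chromosomes and the most used marker of dividing cells, has 2 probes on the plus strand at chr1:4739957-4740016 and chr1:4734985-4735044.
MKI67 bright probe: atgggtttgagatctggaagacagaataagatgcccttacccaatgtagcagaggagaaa
MKI67 dim probe: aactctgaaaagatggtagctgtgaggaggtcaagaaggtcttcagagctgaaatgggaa
The bright probe stood above background on all 32 arrays and the dim one on 13, with r = 0.63 between them, so MKI67 rests on the first alone. Over all members, 13 pairs of measurable probes from 11 genes had no stretch of 15 or more bases in common. Their correlations ran from 0.819 to 0.984 (median 0.955), and all 13 pairs gave differences of 1 sign. Of 25 pairs that did overlap, 19 gave 1 sign, and the other 6 were all among the 5 nested probes of MCM2, whose differences lay between -0.0086 and 0.11.

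The largest feature of these genes was that they stood high or low together from mare to mare. All 406 pairs of the 29 genes correlated above 0 over the 32 arrays, with a median r of 0.783 and a range of 0.248 to 0.969. Among the 18 mitotic genes the median r was 0.818 over 153 pairs, and among the 11 S phase genes it was 0.726 over 55 pairs. Across the boundary of the stages the median was 0.75 over 198 pairs. RRM2, the small subunit of the enzyme that makes deoxynucleotides, is an S phase gene whose r with the mean of the mitotic genes was 0.978. All of these arrays share a scaling step, so these values are a description of this set of arrays.

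**Figure D1:**
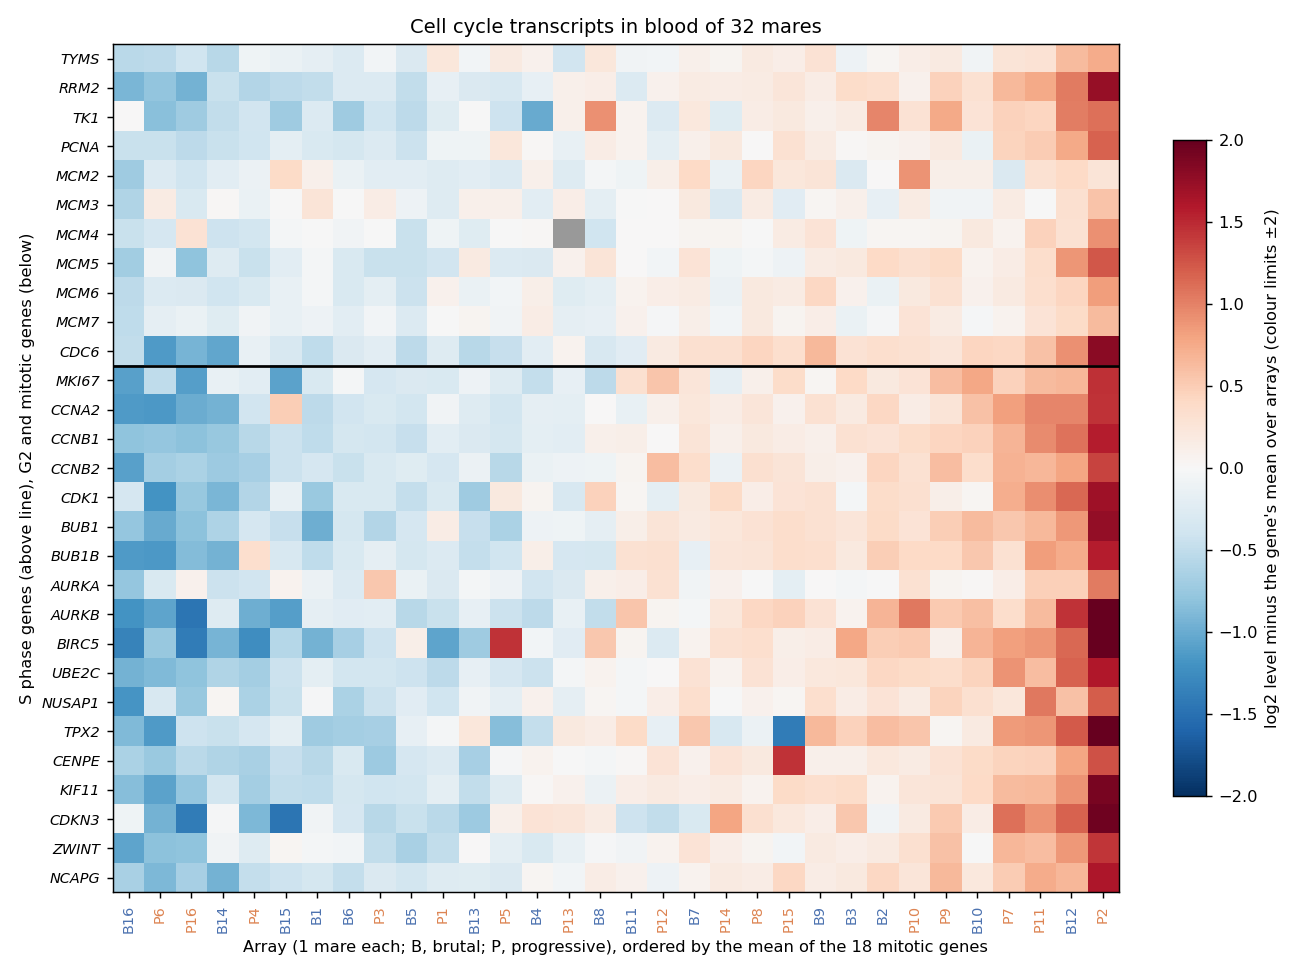
Each cell is the log2 level of 1 gene on 1 array minus that gene's mean over the arrays, with genes in rows, arrays in columns ordered by the mean of the 18 mitotic genes, and array names coloured by weaning group. Blue at left and red at right run through nearly every gene, both groups lie along the whole order, and the grey cell is a spot of MCM4 left out as an outlier.

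The mean of the 18 mitotic genes, each centred on its own mean, ran from -0.89 on brutal 16 to 1.62 on progressive 2, a 5.66-fold span. Progressive 2 was the highest array for 27 of the 29 genes. The exceptions were MCM2, highest on progressive 10, and CENPE, highest on progressive 15. Brutal 12 came next with a mitotic mean of 0.93 and was among the highest 3 arrays for 29 of 29 genes. It was followed by progressive 11 at 0.75 and progressive 7 at 0.60. At the low end stood brutal 16, progressive 6 at -0.86 and progressive 16 at -0.83, so both ends held mares of both groups. Progressive 16 also carried 851 of the 2483 spots that the extraction software marked as outliers over all arrays, against a median of 37 per array.

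The S phase genes followed the same order over a smaller range. Their mean ran from -0.54 on brutal 16 to 1.003 on progressive 2, a 2.90-fold span. It correlated with the mitotic mean at r = 0.971 and rho = 0.962 over 32 arrays, at 0.950 within the brutal and 0.986 within the progressive group. Without brutal 16 and progressive 2, the arrays farthest from the median, r was 0.953. The standard deviation of the S phase mean was 0.603 of that of the mitotic mean. Without progressive 2 alone the median r over all pairs of genes was 0.714, and the lowest was 0.057.

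**Figure D2:**
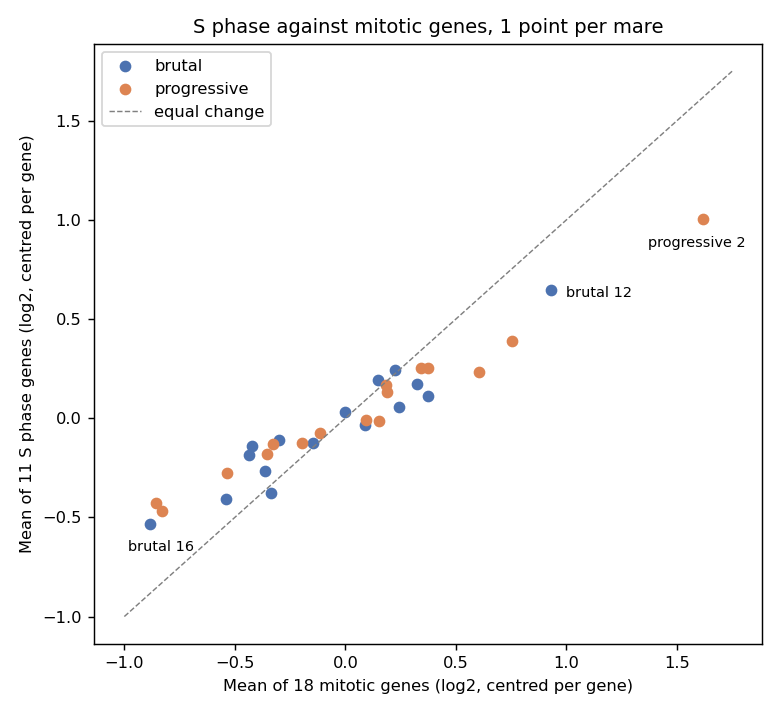
Each point is 1 mare, with the mean of 18 mitotic genes on the x axis and the mean of 11 S phase genes on the y axis, both in log2 and centred per gene. The points follow a line flatter than the dashed line of equal change, from brutal 16 at -0.89 and -0.54 to progressive 2 at 1.62 and 1.003.

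Among the S phase genes, MCM7, MCM3, MCM4 and MCM6, subunits of the helicase ring that unwinds DNA at the replication fork, had the smallest standard deviations within groups (0.21 to 0.29). TYMS (0.30), MCM2 (0.32), PCNA (0.38) and MCM5 (0.42) followed. The median standard deviation within groups was 0.59 for the 18 mitotic genes, 0.28 for the 6 MCM subunits and 0.31 for all 26368 measurable probes. All 18 mitotic genes lay above that median of all probes, but only 2 of the 6 MCM subunits did. From the lowest to the highest array, MCM7 spanned 2.21-fold and MCM3 2.26-fold, while CDC6, which loads the helicase onto DNA, spanned 7.68-fold and RRM2 6.44-fold. Mitotic genes spanned 3.49-fold (AURKA) to 11.9-fold (AURKB). Of the 4 genes that spanned over 10-fold, AURKB stood above background on 16 arrays, BIRC5 on 19 and CDKN3 (10.6-fold) on 20, so part of their low range lies near background. TPX2, with an equally wide span, stood above background on all 32.

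MCM subunits also had lower correlations with the other members. Pairs of them had a median r of 0.641, and pairs of an MCM subunit with a mitotic gene 0.702, against 0.816 for the other S phase genes with mitotic genes. MCM3 (r = 0.517 with the mitotic mean) and MCM2 (0.559) were the lowest of the 29. MCM6 (0.871), MCM5 (0.875) and MCM7 (0.837) lay near the mitotic genes themselves, which ran from 0.723 for AURKA to 0.985 for CCNB1, each against the mean of the other 17 mitotic genes.

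Between the weaning groups, no cell cycle gene passed the test. With limma over 26368 probes, 0 of the 29 genes had an adjusted p under 0.05, as had 0% of all probes, and the smallest adjusted p of any probe was 0.997. At an unadjusted p under 0.05 the count was 0 of 29 genes, against 715 probes or 2.71% of all, of which 244 or 0.925% were higher after progressive weaning. In level, 26 of the 29 genes lay above 0 as progressive minus brutal, against 44.9% of all probes. Because the genes move together over mares, these 26 are not separate observations. The median difference was 0.14, against -0.013 over all probes. All 29 intervals (95%) crossed 0 and lay within -0.62 to 0.73, and in 21 genes the difference was smaller than its own standard error (SE). The groups' ranges overlapped for 29 of 29 genes. The share over all probes is not given here, so this count is not read as particular to them.

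S phase and mitotic genes did not stand apart in this comparison. The median difference was 0.11 over the 11 S phase genes (9 above 0) and 0.15 over the 18 mitotic genes (17 above 0), and a test of 1 stage against the other was not run. The median over the 6 MCM subunits was 0.077. As means per mare, the mitotic genes had a brutal value of -0.069 ± 0.45 (SD, n = 16) and a progressive value of 0.069 ± 0.62 (SD, n = 16). The S phase genes stood at -0.046 ± 0.29 and 0.046 ± 0.36. For the mitotic mean, 7 brutal and 9 progressive arrays lay above 0.

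Leaving out progressive 2, the array with the highest values, lowered the difference of all 29 genes. Without progressive 2 the median over all 29 genes was 0.053, with 21 of 29 above 0, and that over the mitotic genes was 0.035, with 13 of 18 above 0. The S phase median was then 0.060, with 8 of 11 above 0. Without brutal 12, the second highest array, the 3 medians were 0.21, 0.22 and 0.15.

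**Figure D3:**
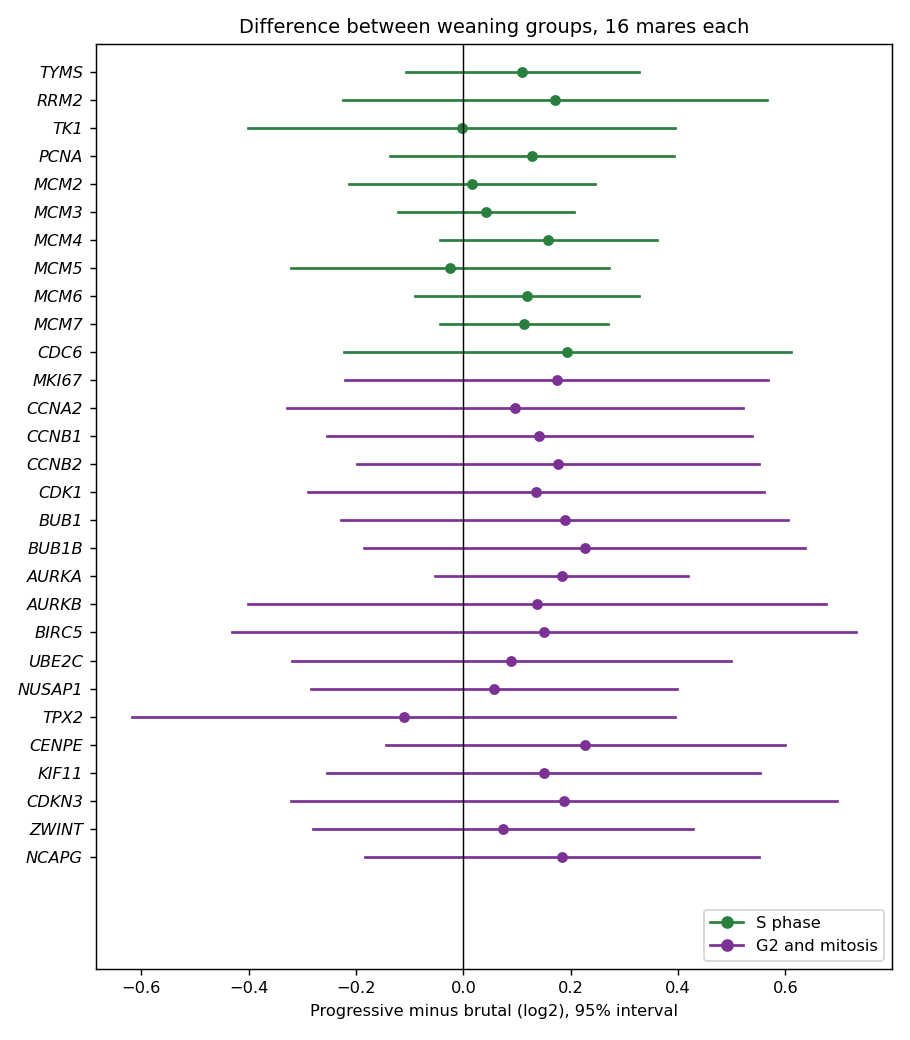
Points are the differences in log2 level, progressive minus brutal, of the 29 genes, with 95% intervals from limma over 16 mares per group, in green for S phase and purple for G2 and mitosis. Points lie right of 0 for 26 genes, every interval crosses 0, and those of MCM7 and MCM3 are the narrowest.

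Of the enzymes that supply nucleotides, TYMS, which makes thymidylate, ran from -0.12 through a median of 0.36 to 1.07 after brutal weaning. Its progressive values were -0.084, 0.56 and 1.18. Both ranges nearly coincided, with a difference of 0.11 (SE 0.11, unadjusted p = 0.311, adjusted p = 0.997 by limma). RRM2 differed by 0.17 (interval -0.22 to 0.57) and TK1, which salvages thymidine, by -0.0035 (interval -0.40 to 0.39).

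PCNA, the sliding clamp that holds the polymerase on DNA, ran from 0.81 through 1.23 to 2.03 in the brutal mares and from 0.73 through 1.31 to 2.45 in the progressive mares. Progressive 2 was its highest array, and the difference was 0.13 (SE 0.13, unadjusted p = 0.333). Without progressive 2 it was 0.053. CDC6 differed by 0.19 (interval -0.22 to 0.61), or 0.080 without that array.

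Of the helicase subunits, MCM4 had the smallest unadjusted p of the 29 genes. It ran from -0.56 through -0.15 to 0.17 after brutal weaning and from -0.49 through -0.079 to 0.78 after progressive weaning, where 15 arrays had a value. The difference was 0.16 (SE 0.099, unadjusted p = 0.119), and 0.099 without progressive 2. The second probe of MCM4 differed by 0.13. The deposited log2 table gave 0.41 for MCM4, with a wider SE of 0.25 (unadjusted p = 0.116 by limma). For MCM7, the brutal values were 0.95, 1.40 and 1.84 (lowest, median, highest) and the progressive ones 1.28, 1.45 and 2.09. Their difference was 0.11 (SE 0.077, unadjusted p = 0.152), with the narrowest interval of all members, -0.044 to 0.27. MCM6 ran from 2.40 through 2.84 to 3.35 and from 2.62 through 3.03 to 3.76, a difference of 0.12 (SE 0.10, unadjusted p = 0.259). MCM2, MCM3 and MCM5 differed by 0.016, 0.042 and -0.025, and none of the 6 passed the test.

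**Figure D4:**
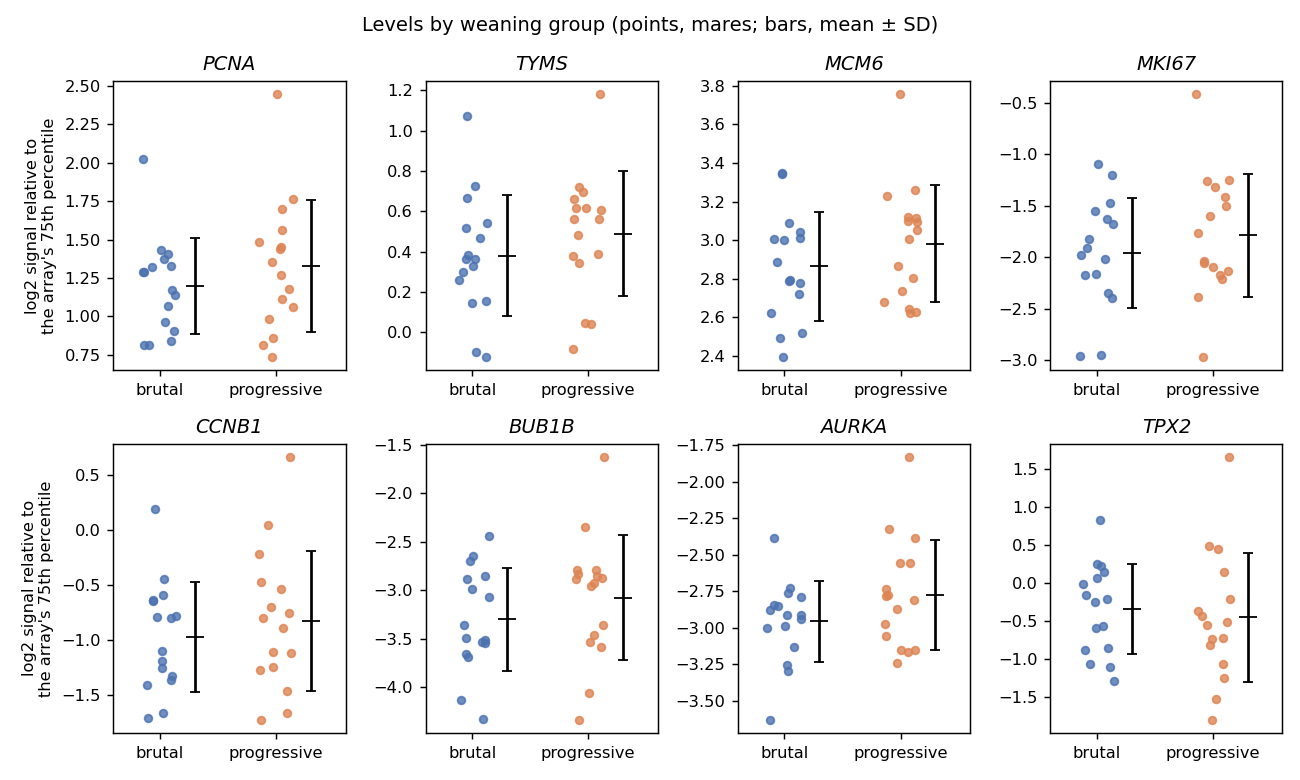
Points are the log2 levels of 8 members on single arrays, relative to the array's 75th percentile, by weaning group, and bars are the mean ± SD over 16 mares. In every panel the groups overlap almost fully, and in each the highest point is a progressive mare, progressive 2.

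Among mitotic genes, MKI67 ran from -2.96 through -1.94 to -1.10 in brutal mares and from -2.97 through -1.90 to -0.42 in progressive mares. The lowest values and the medians nearly coincide, and only the highest value stands apart. MKI67 stood at -1.96 ± 0.54 (SD, n = 16) and -1.79 ± 0.60 (SD, n = 16), a 1.13-fold ratio. The difference was 0.17 (SE 0.19, interval -0.22 to 0.57, unadjusted p = 0.378), and 0.082 without progressive 2.

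The cyclins and their kinase gave a like picture. CCNB2, a B-type cyclin, ran from -2.44 through -1.45 to -0.55 and from -2.02 through -1.27 to 0.0032, a difference of 0.18 (SE 0.18, unadjusted p = 0.343). CCNB1, with the pair of probes shown above, differed by 0.14 (interval -0.25 to 0.54), and by 0.042 without progressive 2. CCNA2, the cyclin of S and G2 phase, differed by 0.096, and CDK1, the kinase these cyclins activate, by 0.14. CDKN3, a phosphatase that acts on CDK1 and its relatives, ran from -5.73 through -4.34 to -3.08 and from -5.67 through -4.07 to -2.32. It differed by 0.19 (SE 0.25, unadjusted p = 0.457).

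At the spindle poles and kinetochores, AURKA, the kinase that matures the poles, had the smallest unadjusted p of the mitotic genes. Its brutal values were -3.63, -2.91 and -2.38 and its progressive ones -3.24, -2.80 and -1.83. The difference was 0.18 (SE 0.12, interval -0.052 to 0.42, unadjusted p = 0.123), and 0.12 without progressive 2. CENPE, a motor at the kinetochore, ran from -3.55 through -2.89 to -2.10 and from -3.63 through -2.71 to -1.44. Its highest value was on progressive 15, and the difference was 0.23 (SE 0.18, unadjusted p = 0.224). TPX2, which activates AURKA on the spindle, was the only mitotic gene below 0, at -0.11 (interval -0.62 to 0.39). Its second probe gave -0.091, with r = 0.981 between both. Its lowest array was progressive 15, the array on which CENPE was highest. Without progressive 15 TPX2 differed by -0.022 and CENPE by 0.14.

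The spindle checkpoint, which holds mitosis until chromosomes are attached, is represented by BUB1 and BUB1B. BUB1 ran from -2.03 through -1.20 to -0.18 and from -2.06 through -0.81 to 0.70, a difference of 0.19 (SE 0.20, unadjusted p = 0.363). BUB1B ran from -4.33 through -3.42 to -2.44 and from -4.34 through -2.90 to -1.63, with a difference of 0.23 (SE 0.20, unadjusted p = 0.270). NCAPG, a subunit of the condensin that compacts chromosomes, ran from -1.25 through -0.25 to 0.37 and from -1.21 through -0.26 to 1.31. For it the medians nearly coincide, and the difference in means was 0.18 (SE 0.18, unadjusted p = 0.314). AURKB and BIRC5 of the chromosomal passenger complex differed by 0.14 and 0.15, the spindle motor KIF11 by 0.15, UBE2C by 0.089, the kinetochore protein ZWINT by 0.074 and the microtubule binder NUSAP1 by 0.057. Without progressive 2, AURKB (-0.00032), UBE2C (-0.015), NUSAP1 (-0.022), ZWINT (-0.019) and MCM2 (-0.00040) lay below 0.

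The 32 arrays lay on 4 slides with 4 mares of each group on each, so every slide repeats the comparison. Of the 29 genes, 23 were above 0 on slide 1, 23 on slide 2, 11 on slide 3 and 27 on slide 4. The median differences were 0.12, 0.049, -0.035 and 0.37, so slide 4 carried the largest and slide 3 ran the other way. Over all probes the medians were 0.017, -0.0063, -0.021 and -0.054, so the members lay near all probes on slide 3. Above 0 on all 4 slides were 8 genes, the S phase genes RRM2 and MCM7 and the mitotic genes MKI67, CCNB2, BUB1B, AURKA, ZWINT and NCAPG. Mean levels also differed between slides: the mitotic mean was 0.40 ± 0.30 (SD, n = 8) on slide 3 and -0.35 ± 0.41 (SD, n = 8) on slide 4. Each mare lay on 1 slide only, so slide and mare cannot be told apart here. Within slides, after each slide's own mean was taken off, the S phase and mitotic means still correlated at r = 0.962 and the median over pairs of genes was 0.744. Over the arrays the mitotic mean correlated at -0.244 with the log2 75th percentile of signal, at 0.049 with the share of spots above background (53.0% to 66.0%) and at -0.343 with the number of outlier spots.

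Further lists of the same pathway were read the same way, and 0 genes of any list passed the adjusted test. Over all probes 44.9% were above 0, with a median of -0.013. Of 33 other measurable mitotic genes, 27 were above 0 with a median of 0.091. CIT, the citron kinase of cytokinesis, differed by 0.39 (SE 0.21, unadjusted p = 0.0739) and SMC4, a core condensin subunit, by 0.19 (SE 0.11). Of 34 other replication genes 20 were above 0, with a median of 0.052. Both named genes encode subunits of the GINS complex, a partner of the MCM ring: GINS3 differed by -0.49 (SE 0.20, unadjusted p = 0.0195) and GINS2, above background on 15 arrays, by 0.35 (SE 0.22). The other subunits lay at -0.065 (GINS1) and -0.0062 (GINS4), and none of the 4 passed the adjusted test.

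A list of G1 cyclins, their kinases and regulators of these and of CDK1 held 12 measurable genes, of which 8 were above 0 (median 0.048). Among them were PKMYT1, the kinase that restrains CDK1, at 0.15 (SE 0.13) and CCND3, a D-type cyclin, at 0.085 (SE 0.080). CDC25A, a phosphatase of G1 entry, stood above background on no array. Of 6 inhibitors of cyclin-dependent kinases 1 was above 0 (median -0.070), with CDKN2D at -0.25 (SE 0.12, unadjusted p = 0.0394) and CDKN1B, the inhibitor p27, at -0.089 (SE 0.065). Of 15 pocket proteins, E2F factors and MuvB subunits, which switch cell cycle genes on and off, 5 were above 0 (median -0.050). E2F3 stood at -0.44 (SE 0.27) and LIN37 at -0.096 (SE 0.075).

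These lists differed in how they followed the mitotic mean over the 32 arrays. The other mitotic genes gave r = 0.983 and the other replication genes 0.932, on means per array. G1 cyclins and kinases gave 0.808, pocket proteins and E2F factors 0.638 and inhibitors 0.365, or 0.702, 0.501 and 0.197 without brutal 16 and progressive 2. Within every one of these lists single genes differed widely. The other mitotic genes ran from -0.148 (ESPL1) to 0.951 (KIFC1) and the other replication genes from -0.135 (GINS4) to 0.881 (FEN1). The range was 0.0049 (CDK2) to 0.763 (PKMYT1) among G1 cyclins and kinases and -0.284 (CDKN2D) to 0.772 (CDKN2C) among inhibitors. It was -0.378 (RB1) to 0.913 among pocket proteins and E2F factors. The highest of the last list were MYBL2, a MuvB partner that turns on mitotic genes, and the E2F factor E2F8 at 0.90, and the next was E2F2 at 0.391.

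Outside the pathway lists, the genes whose level followed the mitotic mean most closely were SPAG5, a protein of the mitotic spindle, at r = 0.969, and SHCBP1 at 0.945. TUBA1C, an alpha tubulin, gave 0.924, and LOC100052727, which the RefSeq table names H1-5, a linker histone, gave 0.921. A probe named CORT on the array has an accession that the same table gives to CENPS, a kinetochore protein, and its r was 0.916. IRF4, a transcription factor of activated lymphocytes and plasma cells, gave 0.908. The remaining 4 of the closest 10 carry only sequence identifiers. The 10 closest to the S phase mean shared 9 of these and added CENPP, a kinetochore protein, at 0.896. The median over 14488 genes was 0.058 for the mitotic and 0.074 for the S phase mean.

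Marker lists of blood cell types were set beside the mitotic mean. Of the listed markers, 13 of 16 for neutrophils, 11 of 14 for T cells, 11 of 12 for B cells and 11 of 14 for NK cells had a probe, and all of these were measurable. By contrast 12 of 18 red cell markers had a probe and only 5 were measurable, and for platelets 13 of 15 and 9. For plasma cells it was 9 of 12 and 8, for dendritic cells 9 of 10 and 7, and for monocytes 8 of 12 and 8. EPB42 and TFRC of the red cell list and ZBTB46 of the dendritic cell list stood above background on no array. The list of 8 plasma cell genes followed the mitotic mean most closely, with r = 0.768 and rho = 0.677 (0.723 within the brutal and 0.785 within the progressive group, 0.640 without brutal 16 and progressive 2, 0.758 within slides). T cell genes gave 0.420, NK and cytotoxic genes 0.206, erythroid genes 0.212, dendritic cell genes 0.161, B cell genes 0.136, platelet genes -0.0052, monocyte genes -0.272 and neutrophil genes -0.419. Without brutal 16 and progressive 2 the T cell value was 0.243 and the dendritic cell value -0.027, and the neutrophil value was -0.411. The erythroid value was 0.649 within the brutal and -0.139 within the progressive group.

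**Figure D5:**
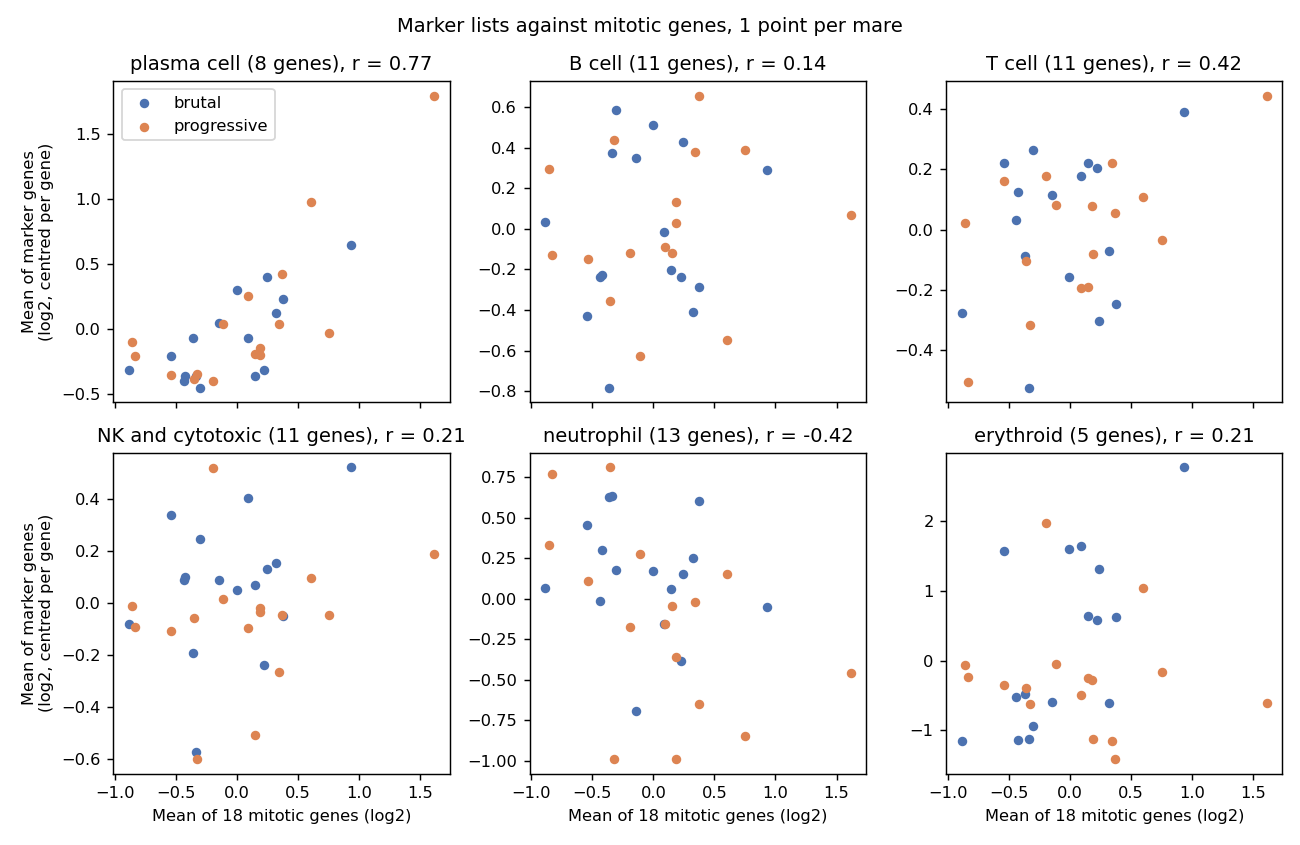
Each point is 1 mare, with the mean of 18 mitotic genes on the x axis and the mean of a marker list on the y axis, both in log2 and centred per gene, for 6 lists. Plasma cell genes rise along the x axis (r = 0.77), neutrophil genes run the other way (r = -0.42), and B cell genes show no slope (r = 0.14).

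The plasma cell list was not uniform. IRF4 gave r = 0.908, MZB1 0.819, TNFRSF17 0.796, IGJ 0.795, FKBP11 0.677 and POU2AF1 0.575, but CD38 gave -0.133 and PRDM1 -0.289. Progressive 2 was the highest array for the same 6 genes. IGJ, the chain that joins antibody units, stood at 4.92 there, with 3.54 the next highest. TNFRSF17, the receptor BCMA of plasma cells, stood at 2.15 with 0.026 the next highest. For MZB1, a chaperone of antibody assembly, the values were 2.52 and 1.44. Summed on the linear scale, in units of the array's 75th percentile, the 8 genes reached 48.2 on progressive 2, and ran from 5.94 to 15.7 in brutal mares, with 20.8 the next highest overall. IGJ was the largest term of the sum on progressive 2, so this sum mainly follows the brightest probe. CD38 and PRDM1 each ranked only 19 from the top there.

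Between the groups all 8 plasma cell genes were above 0, with a median of 0.13, against 44.9% of all probes above 0. Of 13 neutrophil genes 12 were below 0, with a median of -0.24, and no gene of either list passed the adjusted test by limma. All 9 platelet genes (median -0.40) and all 5 erythroid genes (median -0.52) were also below 0, again with none past the adjusted test. Genes of 1 cell type can move together over mares, so these counts are not taken as separate observations. The summed neutrophil list ran from 123 to 417 in brutal and from 111 to 526 in progressive mares, and the summed T cell list from 147 to 275 and from 147 to 285. With neutrophil, T cell, erythroid and platelet means as covariates the median difference of the cell cycle genes was 0.077. Among single genes TYMS was then 0.028, CENPE 0.059, BUB1 0.064 and BUB1B 0.077. AURKA (0.21), CDKN3 (0.23) and MKI67 (0.18) were larger than without covariates, and the rest of the genes with full statistics were smaller. Plasma cell genes were not among the covariates. The part of cell composition in the differences between mares was not tested.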

How the data were processed

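Blood RNA of 32 mares (200 ng each) was labelled with Cy3 and read on single-colour arrays. The deposited scanner files hold an intensity per spot, background-subtracted by Agilent Feature Extraction 10.10.1.1, per the file headers. The authors' deposited series table holds log2 values for 25619 probes, with medians per array of 8.3973 to 8.3986. It served as an alternative; how it was normalised is not stated in the labels or headers, so its centring is unknown. In rank correlation, each column gave 0.996 or more against its own array and 0.987 or less against any other.

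Control and outlier spots were left out. Signals were divided by the array's 75th percentile (339.2 to 646 intensity units), turned to log2 and averaged per probe. No spot was saturated, and the number of arrays limits the precision. Probes entered the test if 8 or more of 16 arrays in either group placed them well above background, which was so for 26368 of 43987. Groups were compared with limma 3.58.1 in R 4.3.3 (lmFit, eBayes, group as the only term, two-sided, Benjamini-Hochberg adjustment over all tested probes, threshold 0.05). The fit was tested on simulated data whose probes were drawn independently, so that test does not cover genes that move together. Means, correlations and figures used Python 3.11.15. Replicates are separate mares per the labels. Members and lists were chosen with earlier results of these data known. Full statistics are given for the 5 S phase and 8 mitotic members with the smallest unadjusted p and for PCNA, TYMS and MKI67; of each pathway list the 2 genes with the smallest p are named, and the 10 genes most like either mean. Other genes singled out (RRM2, CDC6, TPX2, the plasma cell genes, CDK2, CDKN2C, RB1, MYBL2, E2F8, E2F2, GINS1, GINS4, ESPL1, KIFC1, FEN1 and single members by value) were chosen after their values were seen.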

Additional observations from a re-analysis of the deposited data

How the results depend on the processing

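The count of cell cycle genes with an adjusted p under 0.05 was 0 in limma under all 21 alternatives, which changed the background correction, normalisation, scaling, filters, slides, covariates, variance model, probe choice or threshold. At an unadjusted p under 0.05 it was 1 without a filter on dim probes (CCNE2, 0.68, SE 0.31) and 2 on slide 4 alone (MCM4 and CENPE). Over all probes the count was 0 except on slide 4 alone, where it was 1 probe, of TCP11L1. The 13 genes with full statistics kept their direction and stayed short of the threshold under 8 alternatives each. None of the 8 took a slide alone or left a slide out. Of the 8, slide as a block could not move a gene with values on all arrays. The mean of a gene's probes could not move AURKA, BUB1B, CCNB2, MCM7, CDKN3 and MKI67, which have 1 measurable probe each. On slide 3 alone TYMS (-0.064), PCNA (-0.076), MCM4 (-0.051), MCM6 (-0.0093), CENPE (-0.028) and BUB1 (-0.067) lay below 0. So did CENPE (-0.056) and CDKN3 (-0.18) on slide 1 and BUB1 (-0.028) on slide 2. MCM7, AURKA, BUB1B, NCAPG, CCNB2 and MKI67 lay above 0 on all 4 slides. Several sizes moved over 1.5 times under the 8 alternatives. Under normexp CDKN3 was 0.015, AURKA 0.074, BUB1B 0.074, MKI67 0.10 and CENPE 0.11. With composition covariates TYMS was 0.028, CENPE 0.059, BUB1 0.064, MCM6 0.070, MCM7 0.072, BUB1B 0.077, PCNA 0.080 and NCAPG 0.086. MCM4 was 0.41 (SE 0.25) in the series table as deposited, and CDKN3 0.29 without progressive 16. On slide 3 alone the median difference was -0.035 over all members, -0.047 over S phase and -0.017 over mitotic genes, opposite in sign to the other slides. The median over all probes on slide 3 was -0.021. The cause of the change in sign was not tested. Leaving out each array in turn, which was added after seeing the data, gave 0.053 to 0.21, 0.060 to 0.15 and 0.035 to 0.22, lowest without progressive 2 and highest without brutal 12. The normexp background correction gave 0.074 over all members and 0.074 over mitotic genes (14 of 18 above 0), but 0.11 over S phase genes (9 of 11 above 0). Over all members composition covariates gave 0.077, and slide 4 left out 0.070. Quantile normalisation gave 0.14, the percentile over detected probes 0.16, and the deposited log2 values 0.13. Slide as a block left the 3 medians as they were, but this does not test them. The groups are balanced over slides, so only a gene that lacked a value, such as MCM4, could shift. No paired analysis was possible because the labels tie no brutal mare to a progressive one. Signals near background limit CCNE2, CENPF, KIF20A, AURKB, BIRC5 and CDKN3.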
